A study of Mus musculus with 29 samples.

Results

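Mice carrying the iPKR construct in their microglia, given VEGF and vehicle, were compared with mice carrying the plain ribosome tag. The comparison was defined by the sample labels and holds 9 of the 29 libraries of the series, 4 iPKR vehicle and 5 TRAP, each made from the cortex of 1 mouse aged 6 months. TRAP mice were Cx3cr1CreErt2/+;Eef1a1LSL.eGFPL10a/+ and had tamoxifen only. iPKR vehicle mice were Cx3cr1CreErt2/+;Eef1a1LSL.NS3.eGFPL10a.iPKR/+, in which the tag is joined to the viral protease NS3 and to iPKR, a switchable version of the kinase PKR. They had 1 µg/kg VEGF into the abdomen and then DMSO and PEG300 at 10 ml/kg, biweekly for 4 weeks from an age of 4 to 5 months. Mice of both groups had 6 gavages of 100 mg/kg tamoxifen when 4 to 6 weeks old. Construct, VEGF and vehicle all differ between these groups and cannot be told apart.

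A second pair of groups, which shares no library with the first, was set beside it. Both had the 5xFAD transgenes, 1 µg/kg VEGF and 5 mg/kg ASV (asunaprevir, an NS3 protease inhibitor) biweekly for 4 weeks from an age of 5 months. They differed in the construct: 5xFAD iPKR (n = 4) and 5xFAD TRAP (n = 4). Labelled sex was not balanced between them. In 5xFAD TRAP only replicate 3 was labelled female, and in 5xFAD iPKR only replicate 2 was labelled male. The other 3 groups of the series serve only to place some values. iPKR ASV mice (n = 5) had the iPKR genotype with VEGF and ASV from 4 to 5 months. Eif2A mice (n = 4) had the TRAP genotype with Eif2s1A/A and Tg(Eif2s1), and 5xFAD Eif2A mice (n = 3) had 5xFAD besides, both with tamoxifen as their only treatment. All these mice were aged 6 months and had the same tamoxifen course as the first pair. The Cre is driven by Cx3cr1, which is expressed in microglia and also in border macrophages and some blood myeloid cells. What the labels give does not say how many of the cells with the tag were microglia.

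Translating ribosome affinity purification (TRAP) isolates the RNA on ribosomes that carry GFP-tagged L10a, made only where Cre has acted. RNA of cells without the tag remains as background, so the markers of each cell type show whose RNA a pulldown holds. The kinase PKR phosphorylates eIF2α (gene Eif2s1), which slows general translation and favours that of ATF4, the factor that switches on genes of amino acid supply and stress defence. VEGF is a growth factor for blood vessels that also opens the blood-brain barrier.

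Totals were 3.51 to 10.86 M counts in TRAP and 2.9, 32, 3.77 and 7.08 M in iPKR vehicle replicates 1 to 4. The 10 most abundant genes took 11.02% to 15.03% of counts in TRAP and 3.68% to 5.43% in iPKR vehicle. TRAP libraries were alike, with correlations of log counts across genes of 0.962 to 0.969, against 0.909 to 0.949 among iPKR vehicle libraries. Reads carried no molecular identifiers, so limits set from counts cover counting error only. TRAP replicates 1 to 4 and iPKR vehicle replicates 1 and 2 were in batch 1, and the others in batch 2. TRAP replicates 3 and 5 and iPKR vehicle replicate 4 were labelled female, and the others of these 2 groups male. Reads from sex-linked genes went against the labelled sex in 8 of the 29 libraries of the series. These were 0 of the 9 libraries of TRAP and iPKR vehicle, 0 of 4 of 5xFAD TRAP, 0 of 3 of 5xFAD Eif2A, 2 of the 4 labelled 5xFAD iPKR (replicates 1 and 2), 2 of the 4 labelled Eif2A and 4 of the 5 labelled iPKR ASV. Whether the sex or the sample labels are wrong there was not tested, so results that use those groups rest on labels in doubt. All 29 libraries and the labelled sex are in the fit used below, and without those 8 libraries it called 9299 genes in iPKR vehicle against TRAP, where the full fit called 8697.

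Promoters are shown for the 2 loci the mouse lines target and for 1 microglial and 1 neuronal gene that moved apart. Each stretch is the 300 bases around the gene's start in the RefSeq table for GRCm38.p6, on the gene's own strand. Capitals mark GAGGAAG, and CTTCCTC for its other strand, the purine-rich core that the myeloid factor PU.1 (gene Spi1) is known to bind. Eef1a1, the locus that holds the tag, lies at chr9:78481675-78481974 on the minus strand. Cx3cr1, the locus of the Cre, lies at chr9:120068247-120068546 on the minus strand. Itgam, the αM integrin chain of microglia (CD11b), lies at chr7:128062390-128062689 on the plus strand. Rbfox3, the neuronal splicing factor known as NeuN, lies at chr11:118760992-118761291 on the minus strand. For Cx3cr1, Eef1a1 and Rbfox3 this start lies inside the span that the GENCODE annotation gives the gene, not at its outer end, and for Rbfox3 it is far inside.
Eef1a1: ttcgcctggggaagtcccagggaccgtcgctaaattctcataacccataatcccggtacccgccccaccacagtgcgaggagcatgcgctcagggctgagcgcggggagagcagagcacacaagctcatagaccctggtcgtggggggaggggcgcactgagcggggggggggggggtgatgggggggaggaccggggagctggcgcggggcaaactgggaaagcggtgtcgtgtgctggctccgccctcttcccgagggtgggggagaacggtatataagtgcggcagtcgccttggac
Cx3cr1: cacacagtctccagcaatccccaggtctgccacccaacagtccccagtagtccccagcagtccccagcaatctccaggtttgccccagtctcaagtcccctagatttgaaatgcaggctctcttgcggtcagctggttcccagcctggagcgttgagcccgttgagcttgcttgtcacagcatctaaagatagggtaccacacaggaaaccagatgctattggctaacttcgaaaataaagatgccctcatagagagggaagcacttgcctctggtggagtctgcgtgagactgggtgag
Itgam: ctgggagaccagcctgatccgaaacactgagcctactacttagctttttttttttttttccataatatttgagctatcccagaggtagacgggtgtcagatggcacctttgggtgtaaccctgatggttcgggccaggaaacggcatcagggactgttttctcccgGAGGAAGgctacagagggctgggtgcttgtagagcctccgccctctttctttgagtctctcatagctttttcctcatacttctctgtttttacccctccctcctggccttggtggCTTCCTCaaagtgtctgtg
Rbfox3: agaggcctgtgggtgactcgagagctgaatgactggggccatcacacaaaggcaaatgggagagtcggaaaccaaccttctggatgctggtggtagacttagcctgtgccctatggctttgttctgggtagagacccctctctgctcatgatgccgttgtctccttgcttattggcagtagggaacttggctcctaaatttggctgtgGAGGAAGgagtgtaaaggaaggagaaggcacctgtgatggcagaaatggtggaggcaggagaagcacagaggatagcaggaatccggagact

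The letters were present in the Itgam and Rbfox3 stretches and not in the other two. Of 19 homeostatic microglial genes with an entry in the table, 9 (47.4%) had them, as did 4 of 12 pan-neuronal genes (33.3%), 1 of 15 glutamatergic genes (6.7%) and 4152 of all 27025 genes (15.4%). A match is a description of the letters and not a binding site.

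Most genes differed between the groups. edgeR's quasi-likelihood test called 8697 of 16074 genes at an adjusted p under 0.05 (54.1%), 4605 higher (28.6%) and 4092 lower (25.5%) in iPKR vehicle. Of these, 2481 were at least 4-fold higher and 1740 at least 4-fold lower. Of all 16074 genes, whatever the test, 24.8% had every iPKR vehicle library above every TRAP library and 23.8% had every one below. The median log2 fold change over all genes was 0.17. With library totals in place of TMM factors that median was 0.5, and 5705 genes were higher and 3153 lower. Counts of list members below are to be read against these shares.

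The genes that the lines target were all lower. Cx3cr1 (chromosome 9, 119901616 to 120069879), the fractalkine receptor, was at 718.9, 16.94, 661.1, 614.5 and 709.2 CPM (counts scaled to library size with TMM factors) in TRAP replicates 1 to 5. It was at 0, 43.99, 27.9 and 34.43 CPM in iPKR vehicle replicates 1 to 4. TRAP replicate 2 lay below 3 of the iPKR vehicle libraries, so the groups overlapped, although its share of homeostatic microglial counts, 7.96%, was near that of TRAP replicate 1, 8.01%. The count of 0 in iPKR vehicle replicate 1 allows up to 1.03 CPM (3 counts of the total). The log2 fold change was -4.41 ± 0.79 SE (adjusted p = 3.39e-05, edgeR's quasi-likelihood test, as for every adjusted p below).
Eef1a1, the elongation factor whose locus holds the tag, ran from 472.1 to 579.8 CPM in TRAP and from 146.2 to 199.5 in iPKR vehicle (log2 fold change -1.49 ± 0.28). Both groups carry an insertion at 1 of its alleles. Rpl10a, the gene of the tagged protein, ran from 50.92 to 81.8 CPM and from 15.32 to 41.33 (log2 fold change -1.48 ± 0.39). Eif2ak2, which encodes PKR itself, was at 8.92 to 22.12 CPM in TRAP and at 7.799, 2.746, 0.2098 and 0.78 in iPKR vehicle (log2 fold change -2.27 ± 0.78). Its call was lost in batch 1 alone and without iPKR vehicle replicate 4 (highest adjusted p = 0.0804). Whether construct transcripts add to its counts, or to those of Rpl10a, is not given in the sources used here. Esr1, whose ligand domain the CreErt2 fusion carries, fell by 1.87 on the log2 scale (adjusted p = 0.0422), with libraries that overlapped, and its call held under 13 of 23 alternatives.

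All 25 homeostatic microglial genes measured fell, with log2 fold changes from -4.73 to -2.33 and a median of -4.34, a level of 4.94% of TRAP. The libraries did not overlap for 24 of them, Cx3cr1 being the other. Itgam (chromosome 7, 128062640 to 128118491) was at 343.4, 403.9, 417.5, 331.7 and 323 CPM in TRAP and at 20.05, 21.33, 15.73 and 33.54 CPM in iPKR vehicle (log2 fold change -3.94 ± 0.24 SE, adjusted p = 1.49e-11). Every iPKR vehicle library was under the lowest TRAP library by a wide margin. Itgam had the smallest p of all genes that fell.
Trem2, the lipid-sensing receptor, was at 725.9, 678.9, 1052, 795.4 and 1265 CPM in TRAP and at 22.84, 54.31, 92.09 and 61.51 in iPKR vehicle (log2 fold change -4.30 ± 0.53). The complement gene C1qa ran from 2740 to 5337 CPM in TRAP and from 104.2 to 330.6 in iPKR vehicle (-4.54 ± 0.60). Aif1, the calcium-binding protein IBA1, fell the most of the list (-4.73 ± 0.73). Mertk, a receptor for dead cells that astrocytes also express, fell the least. It was at 199.1, 209, 221.5, 237 and 232.2 CPM in TRAP and at 34.54, 43.22, 61.68 and 46.25 in iPKR vehicle (-2.33 ± 0.22). In bulk samples such as these, fewer tagged cells, less RNA per cell and less capture of tagged ribosomes over background cannot be told apart.

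The list as a share of all counts gave 1 value per mouse. Homeostatic genes took 8.01%, 7.96%, 10.6%, 9.28% and 11.7% of counts in TRAP, and 0.425%, 0.641%, 1.14% and 0.735% in iPKR vehicle. The means were 9.5% ± 1.62 (SD, n = 5) and 0.734% ± 0.298 (SD, n = 4), a ratio of 12.9. The difference had p = 0.01587 in an exact permutation test (two-sided, the smallest that 5 against 4 libraries can give), and adjusted p = 0.02222 over 35 lists. Among all lists, 28 passed at an adjusted p under 0.05 by this exact permutation test, 16 with a higher share and 12 with a lower one. Batch 1 alone, with 4 against 2 libraries, cannot reach the threshold.
The other 5 groups place these values. Homeostatic genes took 9.69% ± 1.58 (SD, n = 4) in 5xFAD TRAP, whose mice had VEGF and ASV without the construct, and 10.6% in both Eif2A and 5xFAD Eif2A, whose mice had neither. They took 0.897% (0.12% to 2.22%, n = 5) in iPKR mice given ASV and 1.97% (0.281% to 3.38%, n = 4) in 5xFAD iPKR. Every library labelled with 1 of the 3 groups with the construct was below every library labelled with 1 of the 4 groups without it, the 8 libraries in doubt included.

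**Figure D1:**
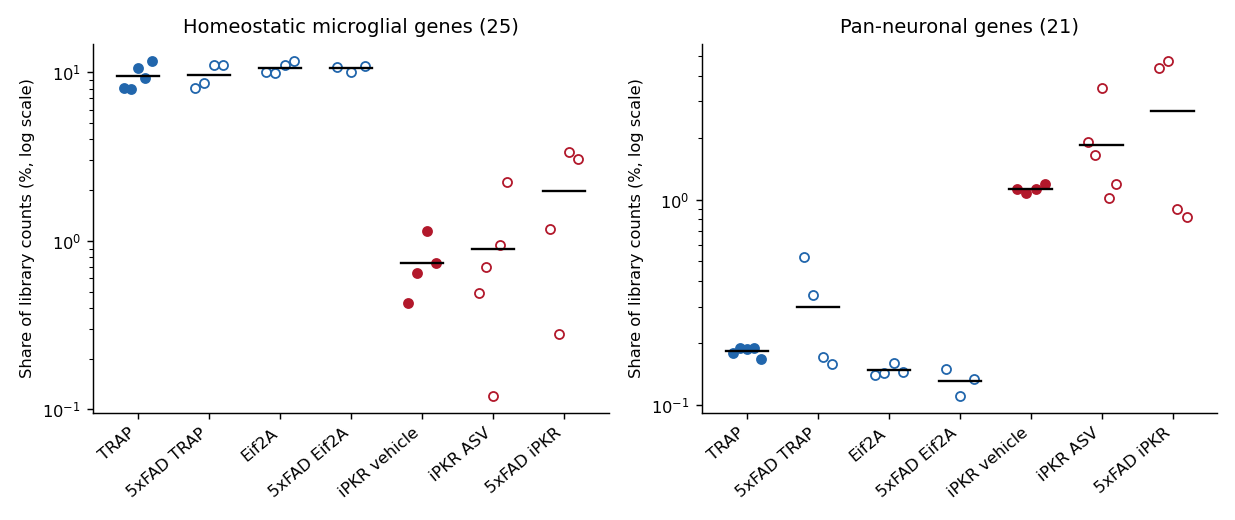
Share of all counts (percent, log scale) taken by 25 homeostatic microglial genes (left) and 21 pan-neuronal genes (right), 1 point per library, with bars at group means. Filled points are the 2 groups compared: microglial shares were 7.96% to 11.7% in TRAP and 0.425% to 1.14% in iPKR vehicle, and neuronal shares 0.168% to 0.191% and 1.08% to 1.19%.

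Of 13 transcription factors of microglial identity, 12 fell, with a median of -3.74. Cebpa, a myeloid regulator, was at 162.4, 232.7, 176, 199 and 194.7 CPM in TRAP and at 20.33, 18.67, 10.28 and 11.25 in iPKR vehicle (log2 fold change -3.74 ± 0.45), with no overlap. Fli1 and Ikzf1 lay at -4.17 and -3.80. Mef2c, which cortical neurons also express, was the exception. It was at 562, 604.6, 479.3, 671.7 and 399 CPM in TRAP and at 479.6, 598.1, 511.7 and 338.3 in iPKR vehicle (0.21 ± 0.25, adjusted p = 0.504), with libraries that overlapped. Mef2a (-1.79), Sall3 (-1.32) and Bhlhe41 (-1.95) fell less than the others.

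Genes of disease-associated microglia, a state found near amyloid plaques, split. Of 25 measured, 16 fell and 3 rose, and the median was -2.54. Clec7a, a receptor for fungal glucans, was at 21.28, 75.84, 14.03, 10.66 and 23.43 CPM in TRAP and had counts in only 1 of the iPKR vehicle libraries, at 0.78 CPM. The lysosomal protein gene Cd68 ran from 422.4 to 648.1 CPM in TRAP and from 18.94 to 47.83 in iPKR vehicle (log2 fold change -4.37 ± 0.40). Apoe, the lipid carrier that astrocytes make in quantity, ran from 919.5 to 2424 CPM and from 170.5 to 744.3 (-1.72 ± 0.36).
The members that rose were Ank, Fabp5 and Igf1. Ank, a pyrophosphate and ATP export protein, was at 62.97, 62.98, 63.7, 66.84 and 127.5 CPM in TRAP and at 296.1, 235.5, 315.3 and 207.5 in iPKR vehicle (1.76 ± 0.25, adjusted p = 1.58e-06). The fatty acid carrier Fabp5 was at 15.16, 12.46, 8.937, 10.54 and 19.78 CPM in TRAP and at 23.68, 57.64, 61.05 and 27.19 in iPKR vehicle (1.68 ± 0.35, adjusted p = 0.000226). For both genes the libraries did not overlap. Igf1, a growth factor that neurons also make, rose by 1.35 ± 0.55 (adjusted p = 0.0389) with overlapping libraries. Its call was lost without any 1 of TRAP replicates 2 to 5 or without iPKR vehicle replicate 1. It was also lost with a replicate block or with only the groups compared (highest adjusted p over all settings = 0.424).

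Markers of the other myeloid and blood cells were scarce in both groups. The 12 border macrophage genes took 0.044% of counts in TRAP and 0.005% in iPKR vehicle. Of these 12, 9 fell, with a median of -3.33. Mrc1, the mannose receptor, was at 16.14 to 79.5 CPM in TRAP and 0.5548 to 4.457 in iPKR vehicle (log2 fold change -4.63 ± 0.69). Pf4 ran from 15.15 to 105.2 CPM and from 3.621 to 7.762 (-3.99 ± 0.70). None of the 4 monocyte and neutrophil genes tested and none of the 4 globin genes passed the test, although the summed share of red blood cell genes was higher in iPKR vehicle (0.00622% and 0.0187%, exact permutation test, adjusted p = 0.03969), with libraries that overlapped. Of 5 lymphocyte genes 1 rose (Trbc2, lost without iPKR vehicle replicate 2 or 4) and 1 fell (Cd79b).

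Libraries were also scaled to the summed counts of the homeostatic list, to ask which myeloid genes moved with it. On this scale 92% of all genes were called, 91.8% higher. The homeostatic genes themselves set the scale, so they are not counted here. Of the 102 other members of 6 myeloid and immune lists, 42 were called higher and 2 lower, and the rest were not called. The 2 called lower were Clec7a and the class I gene H2-Q4, which had counts in 1 and 0 of the 4 iPKR vehicle libraries. With the transcription factors as the scale in place of the homeostatic genes, 11 of the 102 were higher and 50 lower. The 13 factors are themselves among the 102, so this count includes genes that set the scale. Mef2c, which did not fall, is 1 of them, and their summed share fell by a ratio of 3.82, against 12.9 for the homeostatic list. A gene that fell as much as the homeostatic list thus lies lower on the factor scale. Counts so scaled depend on the reference genes.

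All 21 pan-neuronal genes rose, with log2 fold changes from 1.98 to 3.10 and a median of 2.51, a level 5.7 times that of TRAP. The libraries did not overlap for any of the 21. Rbfox3 (chromosome 11, 118489762 to 118911597) was at 52.76, 70.26, 44.27, 74.61 and 78.35 CPM in TRAP and at 261, 372.3, 355.2 and 343.9 in iPKR vehicle (log2 fold change 2.33 ± 0.20, adjusted p = 6.19e-10). Stmn2, a tubulin regulator of growing axons, ran from 43.44 to 64.85 CPM and from 231.4 to 262.1 (2.39 ± 0.23). Mapt, the microtubule protein tau, ran from 19.43 to 39.94 CPM and from 146.5 to 256.9 (2.80 ± 0.31). The highest TRAP library was well under the lowest iPKR vehicle library for each. As a share of counts the list went from 0.183% ± 0.00948 (SD, n = 5) to 1.13% ± 0.0449 (SD, n = 4), a ratio of 6.17 (exact permutation test, two-sided, p = 0.01587, adjusted p = 0.02222).

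Both excitatory and inhibitory neurons were represented. Of 21 glutamatergic genes 20 rose (median 2.40), and of 21 GABAergic genes 16 rose and 1 fell (median 2.00). The vesicular glutamate transporter Slc17a7 (chromosome 7, 45163949 to 45176142) was at 112.2, 148.4, 135, 182.5 and 196.3 CPM in TRAP and at 882.4, 917, 892 and 890.2 in iPKR vehicle (2.52 ± 0.26). Its iPKR vehicle libraries lay closer together than its TRAP libraries. Neurod2, a factor of cortical excitatory neurons, ran from 9.561 to 15.55 CPM and from 74.79 to 104.9 (2.84 ± 0.27). Markers of several cortical layers rose, among them Cux2 (1.94), Rorb (3.51) and Fezf2 (2.59), while the deep-layer gene Tle4 lay at -0.14 and did not pass.
Kcnc2, a potassium channel of fast-spiking interneurons, was at 15.74, 20.93, 11.33, 12.63 and 20.93 CPM in TRAP and at 88.02, 110.9, 92.3 and 89.26 in iPKR vehicle (2.52 ± 0.25). The interneuron markers Pvalb (2.00), Sst (1.48) and Vip (1.97) all rose. The GABAergic gene that fell was Maf, which microglia also express and which is on the microglial list too. Of 14 genes on the list for neurons outside the cortex, 6 rose, 1 fell (Tcf7l2) and 7 did not pass, with a median of 1.51. Whether RNA came from outside the cortex was not tested. Of 22 genes whose mRNA is carried into dendrites and axons or whose protein acts there, 21 rose (median 2.27). Homer1, a postsynaptic scaffold, ran from 52.58 to 112.6 CPM in TRAP and from 315.1 to 618.4 in iPKR vehicle (2.24 ± 0.24).

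Astrocyte genes rose in 16 of 19 and fell in 2, with a median of 2.35. Ndrg2, abundant in grey matter astrocytes, was at 91.83, 70.85, 60.27, 60.36 and 65.29 CPM in TRAP and at 281, 515.8, 398.6 and 330.4 in iPKR vehicle (log2 fold change 2.65 ± 0.28). The growth factor receptor gene Fgfr3 ran from 8.417 to 15.94 CPM and from 51.82 to 81.28 (2.36 ± 0.26). Glul, which makes glutamine, and the glutamate transporter Slc1a3 went the other way. Glul was at 268.3 to 424.1 CPM in TRAP and 77.43 to 202.4 in iPKR vehicle (-1.28 ± 0.28), and Slc1a3 at 350.4 to 549 and 160.2 to 220 (-0.96 ± 0.31). Both were high in TRAP beside the other astrocyte genes, and their libraries did not overlap. The Slc1a3 call was lost without iPKR vehicle replicate 1 (adjusted p = 0.0594) and with library totals as the scale. Among 10 genes of reactive astrocytes 3 rose, near the 28.6% of all genes called higher, and 2 fell (Cd44 and Lox). The protease inhibitor Serpina3n rose by 3.45 ± 0.86, from 0 to 2.691 CPM in TRAP. The summed share of the list was 0.00679% in TRAP and 0.00548% in iPKR vehicle. It did not pass (exact permutation test, adjusted p = 0.2084), and the libraries overlapped.

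Oligodendrocyte genes rose in 13 of 20 and fell in 1 (median 1.85), and precursor genes rose in 6 of 10 (median 1.85). Olig1, a lineage factor, was at 25.65, 26.21, 20.99, 13.67 and 20.16 CPM in TRAP and at 54.04, 101.7, 102.2 and 87.81 in iPKR vehicle (log2 fold change 1.99 ± 0.25). iPKR vehicle replicate 1 was the lowest of its group. The myelin adhesion gene Mag was at 57.72 to 77.23 CPM in TRAP and 27.58 to 72.37 in iPKR vehicle and did not pass (0.13 ± 0.49, adjusted p = 0.83). The transferrin gene Trf fell by 3.88 ± 0.83, from 2.041 to 4.286 CPM to at most 0.2785. Pdgfra, the receptor that marks precursors, ran from 0.1039 to 4.081 CPM and from 11.12 to 27.79 (3.69 ± 0.79).

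**Figure D2:**
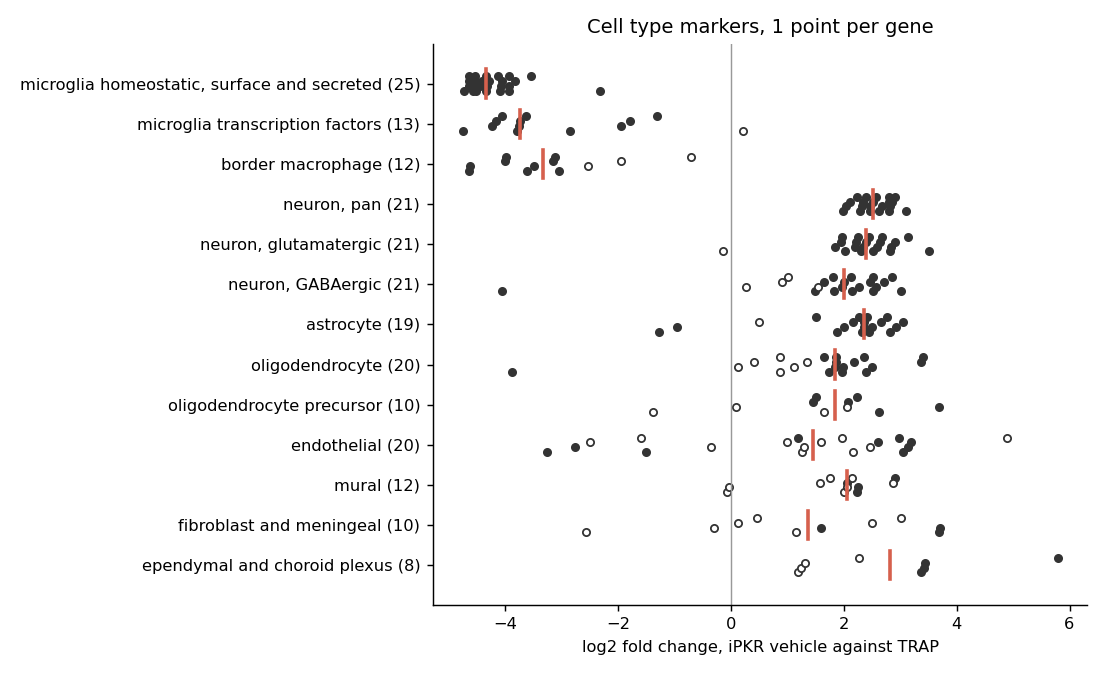
Log2 fold change of iPKR vehicle against TRAP for each marker gene, by cell type, with red bars at the list medians. Filled points passed an adjusted p under 0.05 and open points did not, and the number of genes is beside each name. Homeostatic microglial genes had a median of -4.34 and pan-neuronal genes one of 2.51.

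Vascular genes were scarce, and those of endothelial cells did not move one way. Of 20 endothelial genes 6 rose and 3 fell, and the median was 1.45. Bsg, a membrane glycoprotein that microglia also express, was at 380.7 to 803.3 CPM in TRAP and 130.9 to 287.1 in iPKR vehicle (-1.51 ± 0.19), and Pecam1 (-3.27) and Eng (-2.76) fell as well. As a share of counts the list was lower, at 0.0626% ± 0.0131 (SD, n = 5) in TRAP and 0.0394% ± 0.01 (SD, n = 4) in iPKR vehicle, so the share and the median differ in sign. Bsg alone was above every other endothelial gene named here. The tight junction gene Cldn5 was under 1 CPM in every TRAP library and at 1.95, 2.441, 0.8391 and 4.792 in iPKR vehicle (2.60 ± 0.95, adjusted p = 0.0221). That call was lost with a replicate block and without TRAP replicate 4, iPKR vehicle replicate 2 or iPKR vehicle replicate 4 (highest adjusted p over all settings = 0.112). Of 12 mural genes 4 rose, of 10 fibroblast genes 3 rose and of 8 ependymal and choroid plexus genes 4 rose, and none of them fell. The mural and fibroblast counts are near the 28.6% of all genes called higher. Higd1b held its call under 10 of 21 alternatives, Kl under 15 of 23 and Col1a2 under 16 of 22. Ttr, Cspg4, Pdgfra and Enpp2 kept theirs under all alternatives, and all but Ttr are also on the precursor or oligodendrocyte lists. The summed shares of the mural, fibroblast and ependymal lists were higher in iPKR vehicle, by ratios of 5.28, 4.12 and 12.5. Their libraries did not overlap (exact permutation test, adjusted p = 0.02222 for each). Ttr, the choroid plexus transthyretin, was at 2.228, 24.83, 11.12 and 318.6 CPM in iPKR vehicle and at most at 2.624 in TRAP. The highest value came from iPKR vehicle replicate 4.

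Because iPKR vehicle mice had VEGF, its ligands, receptors and known responders were read together. Of 21 genes 8 rose and 2 fell (median 1.01). Vegfa, the ligand, which astrocytes and neurons express, was at 28.28, 23.02, 15.28, 20.85 and 37.25 CPM in TRAP and at 172.4, 139, 115.8 and 114.1 in iPKR vehicle (log2 fold change 2.23 ± 0.35). The receptor Flt1 was at 0.3118 to 2.915 CPM in TRAP and 7.552 to 11.48 in iPKR vehicle (3.19 ± 0.63). The main signalling receptor Kdr was at 0.3118 to 3.649 CPM and 0.1114 to 1.888 and did not pass (-2.50 ± 1.09, adjusted p = 0.0558). That outcome held under 15 of 23 alternatives, and Kdr was called lower under the others, among them DESeq2 (adjusted p = 0.0259), limma-voom (0.0169) and the fit to only the groups compared (0.00564). The coreceptor Nrp1 ran from 75.85 to 100.9 CPM and from 31.76 to 50.26 (-0.99 ± 0.24), and Nrp2 did not pass (0.55 ± 0.50). Flt4 had 0 counts in all TRAP libraries and was at 0.111 to 0.4196 CPM in iPKR vehicle, and its call held under 8 of 20 alternatives.
The responders did not move together. The tissue factor gene F3 ran from 15.28 to 33.8 CPM in TRAP and from 91.9 to 164.3 in iPKR vehicle (2.40 ± 0.29). Icam1, a leukocyte adhesion molecule that microglia also express, fell (-3.27 ± 0.33), and the calcineurin regulator Rcan1 did not pass (0.01 ± 0.28, adjusted p = 0.974). In 5xFAD TRAP, whose mice also had VEGF, Vegfa was at 13.65 ± 6.02 CPM (SD, n = 4) and Flt1 at 8.556 ± 3.05. Against 5xFAD TRAP, Vegfa rose in 5xFAD iPKR (2.58 ± 0.40) and Flt1 did not pass (0.45 ± 0.64, adjusted p = 0.577). Neuronal and glial markers were higher in the same iPKR vehicle libraries, and their part in these values was not tested.

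The stress pathway that the construct is built to start was read through its kinases, its targets and the chaperones of the endoplasmic reticulum. iPKR vehicle mice had no ASV, the NS3 inhibitor, and the activity of iPKR in them was not measured here. The values are thus not a reading of a construct known to be active. Of 16 genes for eIF2 kinases, eIF2 and its phosphatase, 6 fell and 1 rose, with a median of -0.30. Eif2s1 (chromosome 12, 78861819 to 78887010) was at 139.1, 125.3, 136.7, 117.9 and 126.5 CPM in TRAP and at 51.25, 43.16, 62.93 and 53.04 in iPKR vehicle (log2 fold change -1.08 ± 0.24). The kinase genes Eif2ak3 (0.16 ± 0.31) and Eif2ak4 (0.12 ± 0.35) did not pass, and Eif2ak1 was called lower (-0.65 ± 0.25, adjusted p = 0.0308). That call was lost without TRAP replicate 5, iPKR vehicle replicate 2 or iPKR vehicle replicate 3. It was also lost with upper-quartile factors, library totals or a replicate block (highest adjusted p over all settings = 0.319). Ppp1r15a, the stress-induced phosphatase subunit GADD34, was at 17.87 to 46.66 CPM in TRAP and 85.17 to 121.7 in iPKR vehicle (1.48 ± 0.37).

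ATF4 and stress response targets split, with 9 of 30 higher and 10 lower and a median of -0.23. These counts are not far from the shares over all genes, 28.6% higher and 25.5% lower. The summed share of the list was 0.18% in TRAP and 0.163% in iPKR vehicle. It did not pass (exact permutation test, adjusted p = 0.1482), and the libraries overlapped. Atf4 was at 166.5, 158.6, 166.3, 169 and 163.6 CPM in TRAP and at 163.5, 178.5, 96.29 and 128.4 in iPKR vehicle (-0.26 ± 0.26, adjusted p = 0.411). Ddit3, which encodes CHOP, overlapped as well (-0.20 ± 0.31, adjusted p = 0.617). Among the targets that rose, Asns, the asparagine synthetase, was at 12.24, 16.54, 14.55, 18.65 and 22.47 CPM in TRAP and at 84.68, 92.7, 120.8 and 79.01 in iPKR vehicle (2.82 ± 0.47, adjusted p = 1.34e-05). The amino acid transporter Slc38a2 ran from 43.75 to 104.4 CPM and from 192.2 to 303.9 (1.76 ± 0.27). Chac1, which degrades glutathione, ran from 0.8314 to 5.569 CPM and from 10.14 to 31.62 (2.69 ± 0.46), and the pseudokinase gene Trib3 rose by 1.95 ± 0.59, a call lost without iPKR vehicle replicate 1 (adjusted p = 0.0986). The libraries did not overlap for these 4 genes.
Among the targets that fell were transcription factors that microglia express. Cebpb was at 184.5 to 315 CPM in TRAP and 24.4 to 43.84 in iPKR vehicle (-3.05 ± 0.34), and Atf3 at 12.47 to 23.9 and 0.4196 to 3.621 (-3.87 ± 0.69). The serine synthesis gene Phgdh, also high in astrocytes, fell by 1.93 ± 0.26. Of 20 cytosolic aminoacyl-tRNA synthetases, which load tRNAs and include ATF4 targets, 7 fell and none rose (median -0.55). The largest fall among them was that of Vars, from 59.76 to 142.6 CPM in TRAP to 20.64 to 27.69 in iPKR vehicle (-1.79 ± 0.30).
Of 19 chaperone and quality control genes of the endoplasmic reticulum, 16 fell and 1 rose (median -1.33). Edem1, which directs misfolded glycoproteins to degradation, ran from 360.3 to 420.6 CPM in TRAP and from 18.95 to 57.28 in iPKR vehicle (-3.50 ± 0.37). Xbp1, a factor of the unfolded protein response, fell by 2.11 ± 0.26, and Hyou1 did not pass (-0.18 ± 0.52). Microglial genes fell and neuronal and glial genes rose in the same libraries, and their part in these values was not tested.

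Immune response genes were mostly lower. Of 20 interferon response genes 15 fell and none rose (median -2.59), and all 15 antigen presentation genes fell (median -4.17, or -4.03 with the gene at 0 in every iPKR vehicle library set to its bound). Bst2, which tethers viruses at the membrane, ran from 85.41 to 176.7 CPM in TRAP and from 3.064 to 9.404 in iPKR vehicle (-4.32 ± 0.51). The class I heavy chain H2-D1 was at 428.5, 1684, 751.1, 535.9 and 926.9 CPM in TRAP and at 30.36, 64.05, 91.05 and 76.22 in iPKR vehicle (-3.98 ± 0.44). TRAP replicate 2 was the highest library of both groups for H2-D1. Class I genes are similar in sequence, and how reads matching several genes were counted is not given in the sources used here.
Of 18 inflammatory genes 15 fell and 2 rose (median -3.50). Their summed share did not follow the median, at 0.0882% ± 0.0148 (SD, n = 5) in TRAP and 0.102% ± 0.0613 (SD, n = 4) in iPKR vehicle, and did not pass (exact permutation test, adjusted p = 0.6825). The lipopolysaccharide coreceptor gene Cd14 ran from 150.4 to 280.5 CPM in TRAP and from 11.7 to 20.39 in iPKR vehicle (-3.94 ± 0.32), and the chemokine gene Ccl4 from 24.01 to 39.35 and from 0 to 2.308 (-4.78 ± 0.58). Nfkbia, the inhibitor of NF-κB, which most cell types express, rose instead. It was at 149.3, 229.2, 222.6, 158.6 and 283.8 CPM in TRAP and at 322.8, 468, 1382 and 766.3 in iPKR vehicle (1.17 ± 0.34). Ptgs2, the cyclooxygenase that excitatory neurons express, was at 0 to 9.036 CPM and 11.43 to 13.64 (1.99 ± 0.71). Its call was lost without TRAP replicate 1, without iPKR vehicle replicate 4 or without the 8 libraries in doubt. It was also lost in batch 1 alone or with only the groups compared (highest adjusted p over all settings = 0.144). Of 23 immediate-early genes, which activity switches on in neurons and other cells, 7 rose and 3 fell (median 0.79). The count that rose is near the 28.6% of all genes called higher. Among them were Egr1 at 1.93 ± 0.41, Nr4a1 at 2.12 ± 0.43 and Dusp1 at 2.37 ± 0.28. Dusp6 fell (-1.91 to -1.31 across the alternatives), and Klf4 did not pass.

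**Figure D3:**
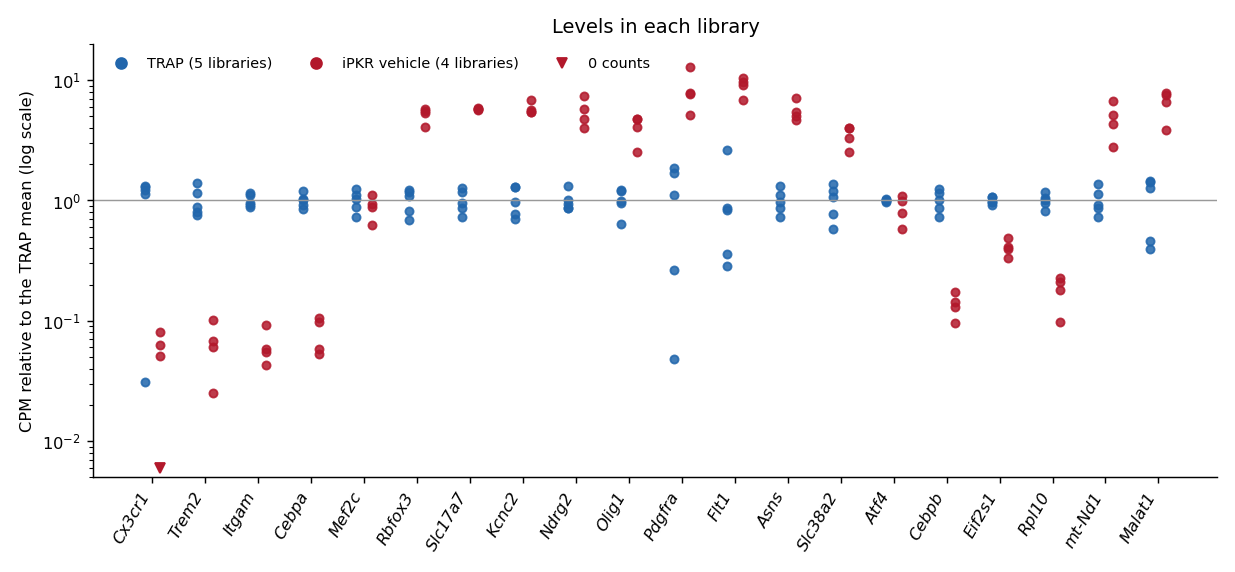
Level of 20 genes in each library relative to the TRAP mean (TMM-scaled CPM, log scale), with TRAP in blue and iPKR vehicle in red. A triangle at the foot marks the library with 0 counts of Cx3cr1, and TRAP replicate 2 is the low blue point of that gene. Trem2, Itgam and Cebpa were low in all 4 iPKR vehicle libraries, Mef2c and Atf4 overlapped, and Rbfox3 to Flt1 rose.

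Genes of the translation machinery were lower. Of 73 ribosomal protein genes 69 fell and none rose, with a median of -1.64. Rps9 was at 481.9, 422.3, 481.1, 523.2 and 621.4 CPM in TRAP and at 47.91, 94.65, 111.8 and 86.92 in iPKR vehicle (log2 fold change -2.84 ± 0.32). Rplp0, of the ribosomal stalk, ran from 311.9 to 354.9 CPM and from 98.32 to 153.4 (-1.54 ± 0.20). As a share of counts the genes took 1.15% ± 0.171 (SD, n = 5) and 0.579% ± 0.205 (SD, n = 4). Many of them have processed copies elsewhere in the genome, so single values are uncertain. Of 30 translation factors 20 fell and 2 rose, and one that rose was Eef1a2, the neuronal and muscle form of the elongation factor (2.42), while Eef1a1 fell.
RNA that does not come from cytosolic ribosomes was higher. Malat1, a nuclear RNA, was at 210.2, 67.96, 57.47, 211 and 184.9 CPM in TRAP and at 569.1, 1092, 971.5 and 1153 in iPKR vehicle (2.21 ± 0.54). Of 10 nuclear long noncoding RNAs 7 rose, and their summed share went from 0.0294% ± 0.0125 (SD, n = 5) to 0.238% ± 0.0769 (SD, n = 4), a ratio of 8.09. Of 9 mitochondrially encoded genes 6 rose (median 1.27), with mt-Nd1 at 37.31 to 70.86 CPM in TRAP and 142.9 to 348.2 in iPKR vehicle (1.62 ± 0.46, adjusted p = 0.0524 without iPKR vehicle replicate 2). Nuclear-encoded genes of oxidative phosphorylation split, with 3 of 40 higher and 16 lower (median -0.33), while their summed share was 0.918% in TRAP and 1.07% in iPKR vehicle and did not pass (exact permutation test, adjusted p = 0.3704). These RNAs moved in the same libraries as the neuronal and glial genes, and their part in those values was not tested.

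Levels between genes were compared per exon length, as TPM (counts divided by exon length and scaled to a fixed total). In TRAP the median homeostatic microglial gene was at 1460 TPM and the median pan-neuronal gene at 27.6. In iPKR vehicle they were at 193 and 234. The order of the 2 lists was thus turned. Itgam went from 189 ± 24.5 to 21.5 ± 7.62 TPM (SD, n = 5 and 4), and the synaptic gene Snap25 from 274 ± 40.9 to 2400 ± 340. The median astrocyte gene went from 13.5 to 99.7 TPM, the median oligodendrocyte gene from 7.22 to 41.2 and the median endothelial gene from 0.668 to 4.23. Microglial genes were thus still present in iPKR vehicle, at levels above those of astrocyte, oligodendrocyte and endothelial genes.

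Genes were also ranked by p. The 10 that rose included Anks1b, Ctnnd2, Mark1, Pgbd5, Pfn2, Ube2ql1, Rbfox3, Rab11fip3 and Dmtn. Anks1b, a postsynaptic protein, was at 87.75, 43.55, 55.91, 65.57 and 76.04 CPM in TRAP and at 496.6, 349.7, 354.5 and 338.2 in iPKR vehicle (2.49 ± 0.19, adjusted p = 9.81e-11). The kinase gene Mark1, which acts on tau, had the largest change of the 10 (3.42 ± 0.28). The 10 that fell were Itgam, Ehd4, Grn, Gtf2h2, Serinc3, Itgb2, Fam46a, Nfe2l2, Ptgs1 and Coro1b. Serinc3, a membrane protein abundant in microglia, was at 3246, 3356, 3851, 3393 and 3489 CPM in TRAP and at 291.9, 368.6, 394 and 401.1 in iPKR vehicle (-3.32 ± 0.21, adjusted p = 1.59e-11). Grn, the lysosomal protein progranulin, ran from 699.4 to 1164 CPM and from 51.25 to 79.79 (-3.82 ± 0.24), and Nfe2l2, the antioxidant factor NRF2, from 204.3 to 347.7 and from 8.913 to 19.08 (-4.20 ± 0.28). For these 20 genes the libraries did not overlap, and they were chosen by their p.

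Long genes were higher and short genes lower. Over 15576 genes with a span in the annotation, the median log2 fold change went from -0.44 in the decile with the shortest genes (median span 1.88 kb) to 1.21 in that with the longest (243 kb). Called higher were 16.4% of the first and 49.6% of the last, and called lower 33.4% and 11.1%. Spearman's rho between span and log2 fold change was 0.17 across genes, which are not independent replicates. Long genes include many neuronal genes, and the part of cell type in this trend was not tested.

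**Figure D4:**
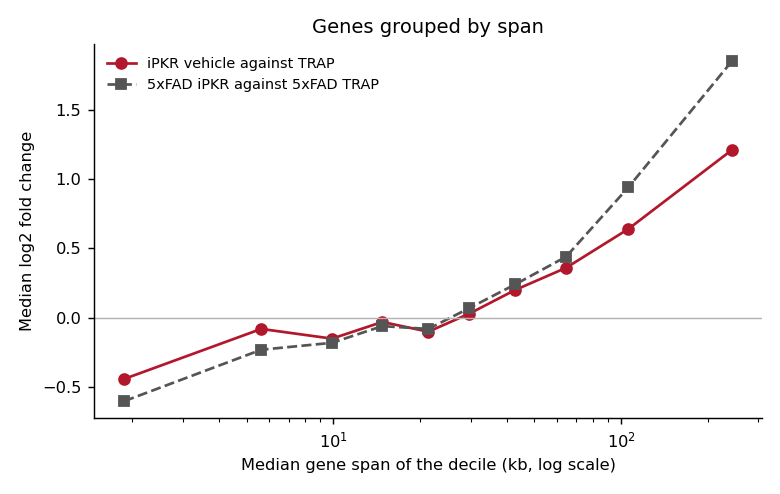
Median log2 fold change of genes in 10 equal groups by gene span (kb, log scale), for iPKR vehicle against TRAP (red) and 5xFAD iPKR against 5xFAD TRAP (grey). The median went from -0.44 to 1.21 in the first comparison and from -0.6 to 1.85 in the second.

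The second pair of groups, with ASV and 5xFAD on both sides, gave most of the same calls. It called 7705 genes (47.9%), 4015 higher (25%) and 3690 lower (23%). Called in the same direction in both were 6431 genes, 73.9% of the calls of the first comparison and 83.5% of those of the second, and 13 were called in opposite directions. The comparisons share 1 fit and its spread but no library. All 25 homeostatic genes fell there too, with a median of -2.87 against -4.34, and all 21 pan-neuronal genes rose, with 2.50 against 2.51. Ribosomal protein genes had a median of -1.76 against -1.64, and mitochondrially encoded genes one of 2.65 against 1.27. Itgam was at 92.37 ± 25.8 CPM in 5xFAD iPKR (SD, n = 4) and 22.67 ± 7.64 in iPKR vehicle (SD, n = 4).
The difference between the comparisons was called for 35 genes (0.218%), 25 of them less negative or more positive with ASV and 5xFAD (0.156%) and 10 the other way (0.0622%). At an unadjusted p under 0.05 there were 1419. Without the 2 libraries of 5xFAD iPKR that went against their labelled sex the number was 166, without all 8 such libraries 588, with a replicate block 10 and with only the groups compared 2. Leaving out 1 library at a time gave 16 to 143, the highest without 5xFAD iPKR replicate 2. Ank and Fabp5 were among the 35. Ank rose by 1.76 in the first comparison and fell by 0.77 ± 0.27 in the second (difference -2.52, adjusted p = 0.0063), and Fabp5 rose by 1.68 and fell by 1.18 ± 0.37 (difference -2.86, adjusted p = 0.0159). In the groups without the construct, Ank was at 483.1 ± 217 CPM in 5xFAD TRAP (SD, n = 4) and 76.8 ± 28.4 in TRAP (SD, n = 5). Igf1 had the same signs, but its difference did not pass (adjusted p = 0.0563). Itgam (difference 1.71), Grn (1.98), Nfe2l2 (2.04), Serinc3 (1.41) and Fam46a (1.44) fell less in the second comparison.

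**Figure D5:**
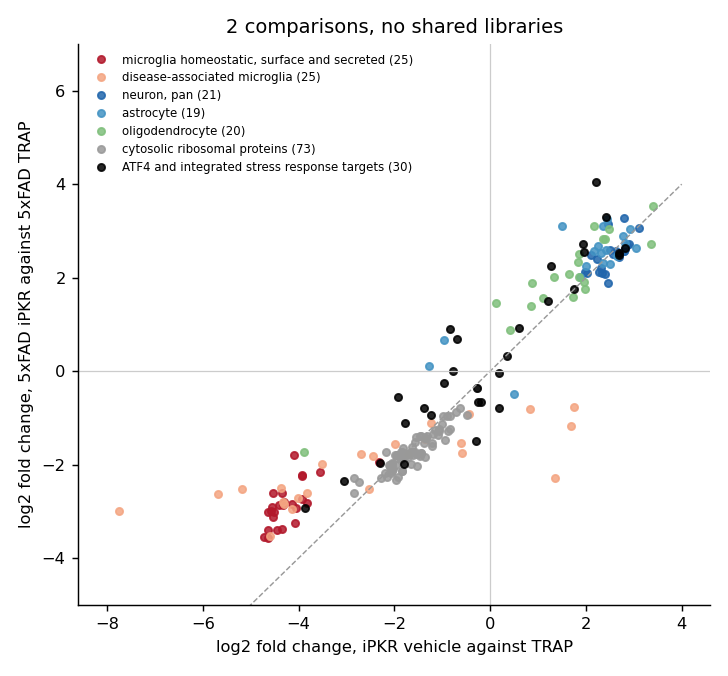
Log2 fold change of list members in iPKR vehicle against TRAP (x axis) and in 5xFAD iPKR against 5xFAD TRAP (y axis), coloured by list, with a dashed line of equal values. Homeostatic genes lie above the line at the lower left (medians -4.34 and -2.87), and pan-neuronal genes lie around it (2.51 and 2.50).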

How the data were processed

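RNA bound to GFP-tagged ribosomes of mouse cortex was sequenced with the SMART-Seq mRNA LP kit from a post-mitochondrial supernatant, per the labels' protocols. The deposited count table holds whole-number counts per gene symbol. Per the submitters' processing notes, Trim Galore, HISAT2 2.2.1, featureCounts 2.0.3 and mm10 were used, while annotation, strand setting and the counting of multi-mapped reads are not given in the sources used here. The deposited RPKM table was checked only: its length equalled the whole gene span within 0.1% for 86.3% of 21439 matched symbols, so it was not used for levels. Positions are from the GENCODE annotation of mm10.

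Genes were kept with filterByExpr (minimum count 10, minimum total 15). In R 4.3.3, edgeR 4.0.16 fitted 1 quasi-likelihood model to all 29 libraries with group, batch and labelled sex (TMM factors, robust, two-sided, 20 residual degrees of freedom, Benjamini-Hochberg over 16074 genes, threshold 0.05, no minimum fold). Fold changes are log2 values ± SE. CPM are TMM-scaled. TPM-type levels used exon length. Shares of counts were compared with exact permutation tests over 126 arrangements, adjusted over 35 lists. In simulated data with these group sizes (15299 genes) only a small set of genes was changed, and the others had equal means in both groups. The test called 0% of 61 genes changed 1.5-fold, 31.1% of 45 changed 2-fold, 71.4% of 42 changed 4-fold and 86.5% of 52 changed 16-fold. There were 6 false calls. In the data themselves 54.1% of genes were called, so these rates need not hold there.

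Named genes were the 10 with the smallest p in each direction (absolute log2 fold change of at least 1, mean log2 CPM of at least 1, no unnamed or sex-determining genes), up to 4 changed members of each list and its member with the largest p, and the targeted, kinase and VEGF receptor genes. Other list members named for their role or as exceptions (Ank, Fabp5, Igf1, Glul, Slc1a3, Trf, Asns, Malat1 and others) were chosen after their values were seen. The comparison, members and lists were chosen with earlier results of these data known. The labels do not say that replicate numbers pair TRAP and iPKR vehicle libraries, and their correlations do not settle it (see the closing section). For the 5xFAD groups same-numbered libraries correlated at 0.24, 0.17, 0.21 and 0.29 in their deviations from group means, which also follows the batch, so the block was tried. Alternatives tried were DESeq2 1.42.0, limma-voom (limma 3.58.1), size factors from RLE, upper quartiles or library totals, stricter and no filters, a replicate block, dropping sex or batch from the model, fitting batch 1 or the compared groups by themselves, other denominators and each library left out. After the data were seen, 3 alternatives were added: sex read from Y-linked counts, a fit leaving out the 2 libraries of 5xFAD iPKR against their labelled sex and a fit leaving out all 8 such libraries. Some genes that the rule names are not reported here.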

Additional observations from a re-analysis of the deposited data

Results flagged for a closer look

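Single libraries stood apart from the other libraries of their group for 21 of 288 gene levels and list shares, 7.3% where chance gives about 5%, that is about 1 in 20. TRAP replicate 2 was low in Cx3cr1 (16.94 CPM, the other TRAP libraries at 614.5 to 718.9). It was high in Clec7a (75.84 CPM), Ddit3 (40.96), Mag (77.23) and Serpina3n (2.691), and in the interferon share (0.0777%). TRAP replicate 5, the TRAP library in batch 2, was high in Ank (127.5 CPM), Dusp1 (49.35) and Icam1 (70.47), and low in Ehd4 (223.9), Ube2ql1 (16.71) and the share of microglial transcription factors (0.296%). The other TRAP values were Flt1 in replicate 1 (2.915 CPM), Rcan1 in replicate 3 (254.7) and the globin share in replicate 4 (0.012%).

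iPKR vehicle replicate 4 was high in Ttr (318.6 CPM), in the choroid plexus share (0.0782%), in Clec7a (0.78 CPM, the others at 0) and in the share of eIF2 kinases and subunits (0.0962%). iPKR vehicle replicate 1 was high in Anks1b (496.6 CPM) and low in Bst2 (3.064).

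The change differed between the comparisons, by a test of the difference itself, for Ank (-2.52), Fabp5 (-2.86), Fam46a (1.44), Grn (1.98), Itgam (1.71), Nfe2l2 (2.04) and Serinc3 (1.41), on the log2 scale and as the 5xFAD pair minus the vehicle pair.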

How the results depend on the processing

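The count of genes called in iPKR vehicle against TRAP stayed within 1.5 times under every alternative run, from 7719 with a replicate block to 9620 with limma-voom. Leaving out 1 library gave 8080 to 8543 in all, 4015 to 4379 higher and 3772 to 4164 lower, and in the second comparison 6881 to 7403, 3517 to 3805 and 3249 to 3673. With library totals as the scale the first comparison gave 5705 higher and 3153 lower. Of up to 170 called genes that were named, 0 to 11 lost their call in a setting and none changed sign, with 11 lost without iPKR vehicle replicate 2 and 10 in batch 1 alone. In the replicate numbers of TRAP and iPKR vehicle, same-numbered libraries correlated at 0.15, 0.06, 0.08 and -0.07. Those with different numbers correlated at -0.14 to 0.06. So few weak values cannot show whether a number marks a pair, and the labels do not say.

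The count of genes whose difference between the comparisons was called (35, with 25 higher and 10 lower) moved most. It was 293 (244 higher, 49 lower) with DESeq2, 191 (104 and 87) in batch 1 alone, 102 (80 and 22) with limma-voom, 83 (66 and 17) without sex, 20 (15 and 5) without batch, 10 (7 and 3) with a replicate block and 2 (1 and 1) with only the groups compared. RLE factors gave 42 higher. Sex from Y-linked reads gave 64 (50 higher), leaving out both 5xFAD iPKR libraries against their labelled sex 166 (153 higher), and leaving out all 8 such libraries 588 (522 higher, 66 lower). Leaving out 1 library gave 16 to 143 in all, 8 to 130 higher and 4 to 13 lower. The cause was not tested.

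In batch 1 alone the share of homeostatic genes differed by -8.42 percentage points and that of pan-neuronal genes by 0.912, and 0 lists passed the permutation test, which cannot reach the threshold with 4 against 2 libraries. Leaving out 1 library gave differences of -9.15 to -8.22 points for homeostatic genes and 0.926 to 0.962 for pan-neuronal genes. The count of lists in the exact permutation test was 25 to 28. Without iPKR vehicle replicate 2 or 3, however, homeostatic and pan-neuronal genes had an adjusted p of 0.05, the threshold itself and not under it. The 25 lists counted in each of those settings thus do not show that the calls hold there. Scaled to the transcription factor list, 11 of 102 myeloid and immune members, those factors included, were higher and 50 lower. Leaving out 1 library on the homeostatic scale gave 37 to 47 higher and 1 to 5 lower. Genes under 3 counts in a library cannot be told from 0 there.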

Other observations

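Some members of lists described above have values not yet given. The nuclear RNA Rian, of the imprinted Dlk1-Dio3 cluster, was at 23.61, 6.677, 6.859, 3.36 and 15.36 CPM in TRAP and at 73.81, 78.7, 59.16 and 46.58 in iPKR vehicle (log2 fold change 2.39 ± 0.44). Pantr1, a noncoding RNA next to a neuronal factor gene, ran from 13.85 to 22.08 CPM and from 46.24 to 118.7 (1.98 ± 0.36). Among subunits of oxidative phosphorylation Uqcrb, of complex III, fell the most, from 249.2 to 305.3 CPM in TRAP to 43.17 to 108.5 in iPKR vehicle (-1.94 ± 0.28), while Ndufs1 (1.35) and Ndufv1 (1.09), core subunits of complex I, rose.

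Globin genes, which mark red blood cells, were called in 0 of 4 in the first comparison and higher in 4 of 4 in the second, with medians of 0.92 and 2.76, but no member's difference was called. Hba-a1 was at 8.417 to 34.87 CPM in TRAP and 18.94 to 57.06 in iPKR vehicle (0.45 ± 0.65). The summed share of 6 red blood cell genes was 0.00622% ± 0.00326 (SD, n = 5) in TRAP and 0.0187% ± 0.00869 (SD, n = 4) in iPKR vehicle, a difference that passed the permutation test although no single gene was called.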
